A study of Mus musculus with 30 samples.

Results

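The brain endothelial, pericyte and barrier genes are 36 genes chosen by name out of the 19737 genes listed for the whole brains of *Arid1b*+/- (HT) and WT mice. They comprise 17 genes of endothelial identity, 9 genes of the junctions and transporters of the blood-brain barrier and 10 genes of mural cells, the pericytes and smooth muscle cells that wrap the vessels. All 36 were matched by symbol, and all 36 passed the filter on low values in every comparison. The 30 libraries, 5 per group, came from male C57BL/6N mice. At P10, HT and WT pups were untreated. At P120, HT-Flx, HT-Veh, WT-Flx and WT-Veh mice had been nursed from P3 to P21 by dams that drank saccharin at 0.2%, with fluoxetine, a serotonin reuptake inhibitor, at 0.1 mg/ml in the Flx groups and none in the Veh groups. They were weaned at P21. HT mice carry 1 allele of *Arid1b* whose exon 5 was targeted with CRISPR/Cas9, in every cell of the body, so the genotype is not restricted to vessels. The P10 mice differ from the P120 mice in age, in saccharin and in rearing after weaning, and these cannot be told apart.

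Brain capillaries are lined by a single layer of endothelial cells that are sealed by tight junctions and carry transporters for glucose, amino acids and lipids. Efflux pumps on these cells return many drugs to the blood. Pericytes lie on the capillaries and share a basement membrane with them, smooth muscle cells surround the arterioles, and astrocyte endfeet cover the outer side. In the rodent brain the capillary bed is still sprouting in the first postnatal weeks, driven by VEGF, and is largely quiescent in the adult.

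The group labels were first checked on *Arid1b* itself. It had 3271, 3281, 3292, 3309 and 3164 normalized counts in the P10 WT libraries and 2162, 2334, 2246, 2248 and 2179.7 in the P10 HT libraries, 2 ranges that did not overlap. At P120 the 5 WT-Veh libraries had 3171, 2320.4, 3036, 3224 and 3229 (replicates 1 to 5), whereas the 5 HT-Veh libraries had 2342, 3361, 1973, 2480.4 and 2227. The library labelled WT-Veh replicate 2 therefore lay in the range of the other HT libraries, and the library labelled HT-Veh replicate 2 lay among the WT libraries. They are called by their labels throughout. Counts of genes past the threshold that rest on them are given with and without them, and the other values of the Veh groups include them. The Flx groups ran from 2961 to 3392 in WT and from 2164 to 2616 in HT. The normalized counts of a library summed to between 31578600 and 32445800 in P10 WT and to between 32054400 and 32402700 in P10 HT. At P120 the sums were 32484600 to 33588500 in WT-Flx, 33424900 to 35542300 in WT-Veh, 33200700 to 41801000 in HT-Veh and 37083500 to 41522100 in HT-Flx. The read depth of each library is unknown.

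The P120 libraries also differed in how the level of a gene moved with the GC content of its transcript, and the vascular genes span the range over which this matters. Their GC content ran from 39.2% to 60.9%, with a median of 52.3% against 49.7% for all genes. For each P120 library, the median deviation of the 18 GC-richer genes from their mean over the 20 libraries was set against that of the 18 GC-poorer genes. The difference (log2) was 0.41 to 1.04 in the 5 HT-Flx libraries and −0.60 to −0.32 in the 5 WT-Flx libraries. HT-Veh libraries were split, at 0.53, −0.10, 0.60, −0.47 and −0.42 for replicates 1 to 5, and WT-Veh libraries lay between −0.40 and 0.03. All HT-Flx libraries thus had higher GC-rich vascular genes, and all WT-Flx libraries had lower ones. Comparisons that involve these groups are given as deposited and after a correction in which genes were binned by GC content and transcript length and the average offset of a bin was subtracted, library by library.

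**Figure D1:**
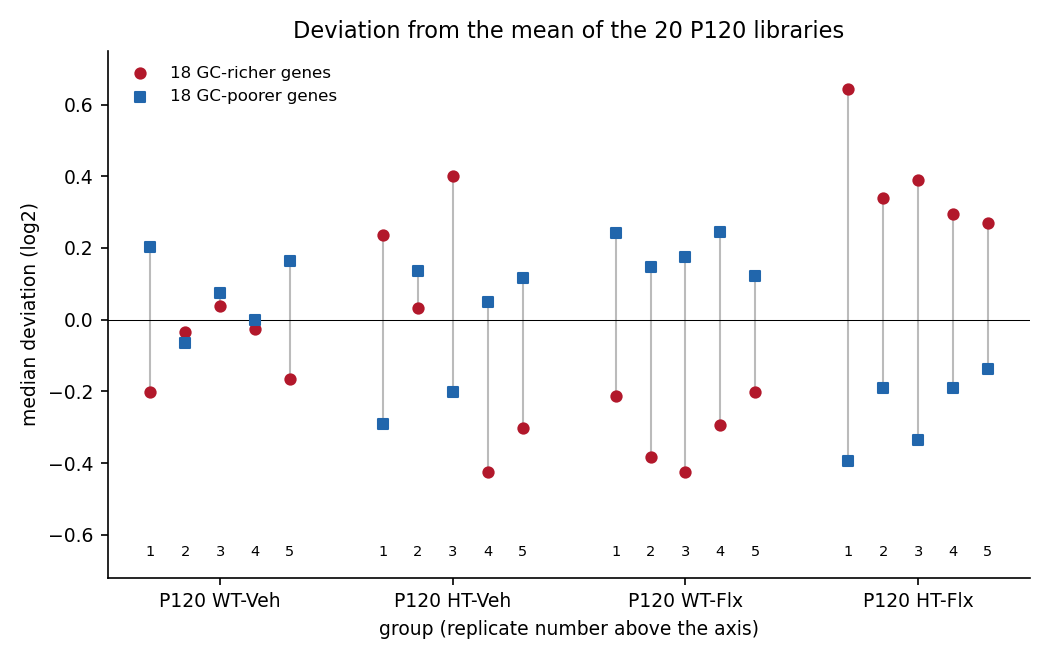
Median deviation (log2) of the 18 GC-richer genes (red circles) and the 18 GC-poorer genes (blue squares) from their mean over the 20 P120 libraries, with 1 pair of points per library. Red lies above blue in all 5 HT-Flx libraries and below it in all 5 WT-Flx libraries, whereas the HT-Veh libraries are split.

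A pair of coding stretches shows what such a difference in composition looks like. *Cldn5* encodes claudin-5, the main sealing protein of the barrier's tight junctions, and lies on the plus strand at chr16:18776847-18778262 in GRCm38. *Slco1a4* encodes an organic anion transporter of brain endothelium and lies on the minus strand at chr6:141805440-141856199. The first 120 coding bases of each, from the GRCm38 annotation, are shown with every G and C in capitals. They make up 59.2% of the *Cldn5* stretch and 40.8% of the *Slco1a4* stretch, close to the 60.5% and 40.3% of the whole transcripts (Cldn5-201 and Slco1a4-203).
Cldn5: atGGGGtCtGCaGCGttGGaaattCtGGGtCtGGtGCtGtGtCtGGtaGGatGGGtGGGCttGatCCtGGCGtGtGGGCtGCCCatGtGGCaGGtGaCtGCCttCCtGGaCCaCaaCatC
Slco1a4: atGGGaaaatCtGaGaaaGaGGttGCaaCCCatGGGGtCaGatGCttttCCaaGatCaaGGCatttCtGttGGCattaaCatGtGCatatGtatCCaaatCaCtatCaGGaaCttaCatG

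The defining markers of endothelium and of mural cells were present in every library, and no gene of the set had a value of 0. Per kilobase of transcript, the level of *Bsg* was the highest in the set in P10 WT brains, at 9999 ± 197 normalized counts per kb (SD, n = 5). It encodes basigin, a partner of lactate transporters that other brain cells also make. *Cldn5* followed at 1647 ± 44.8 per kb, then *Slc7a5*, the large neutral amino acid transporter, at 1401 ± 118, the pericyte gene *Rgs5* at 1277 ± 53.7 and *Vtn*, the gene of vitronectin, at 1190 ± 88.4. Neighbours from *Slc7a5* to *Vtn* lay within their spread. In WT-Veh brains at P120 the order behind *Bsg* was *Slc2a1*, the glucose transporter GLUT1, at 1406 ± 171 per kb, *Vtn* at 1244 ± 176 and *Cldn5* at 1112 ± 238, again within their spread, while *Rgs5* stood at 445 ± 62.9. *Emcn* and *Anpep* had the lowest levels per kb at P10, at 56.6 ± 4.28 and 56.3 ± 6.15. These levels depend on the length used, and with the union of all exons *Cd34* fell from 435 to 152 per kb at P10. *Ly6c1* and *Abcb1a* have close paralogs, so the division of reads between copies affects their values.

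To ask how the vascular genes differ between the pup and the adult brain, P120 WT-Veh was compared with P10 WT and, separately, P120 HT-Veh with P10 HT. Adult brains had far less *Kdr* and *Rgs5* and more of several transporter and surface genes. In WT, 22 of the 36 genes were lower and 7 were higher at P120 (limma, adjusted p under 0.05), where 29.4% of all genes tested were lower and 28.9% higher. In HT, 12 were lower and 8 higher, against 25.3% and 25.8% of all genes. The median log2 fold change of the 36 genes was −0.45 in WT and −0.25 in HT, against −0.01 and −0.02 over all genes. In whole-brain RNA, fewer vascular cells and less RNA per vascular cell cannot be told apart, and other cells grow between P10 and P120.

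The receptors of VEGF moved in opposite directions. *Kdr* encodes VEGFR2, the main signalling receptor of VEGF, and *Flt1* encodes VEGFR1, which binds VEGF tightly but signals weakly. *Kdr* had 1569, 1675, 1655, 1759 and 1681 normalized counts in P10 WT and 531, 451, 555, 486 and 377 in WT-Veh. In HT it had 1558, 1477, 1451, 1615 and 1685 at P10 and 372, 555, 324, 463 and 513 at P120. The ages did not overlap in either genotype, and the log2 fold change was −1.81 ± 0.10 (SE) in WT (adjusted p = 1.3e-08, limma) and −1.83 ± 0.15 in HT (adjusted p = 7.15e-07). *Flt1* had 1452, 1573, 1605, 1639 and 1804 in P10 WT against 2373, 2149.9, 2623, 2344 and 2343 in WT-Veh. For HT the values of *Flt1* were 1444, 1405, 1532, 1437 and 1618 against 2295, 2579.6, 1828, 2087 and 2346. Every adult library was above every pup library, with log2 fold changes of 0.55 ± 0.07 in WT (adjusted p = 2.97e-05) and 0.57 ± 0.11 in HT (adjusted p = 0.00086).

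Both receptor genes lie on the minus strand of chromosome 5, and their promoters are printed because the genes moved apart. The windows are the 250 bases before each start in RefSeq (GRCm38.p6), at chr5:75978456-75978705 for *Kdr* and chr5:147726012-147726261 for *Flt1*. The ETS and SOX motifs are named for families of transcription factors. Capitals mark matches, on either strand, to an ETS motif (CCGGAA), a SOX motif (ACAATG) or a GC box (GGGCGG). None of these matches overlap.
Kdr: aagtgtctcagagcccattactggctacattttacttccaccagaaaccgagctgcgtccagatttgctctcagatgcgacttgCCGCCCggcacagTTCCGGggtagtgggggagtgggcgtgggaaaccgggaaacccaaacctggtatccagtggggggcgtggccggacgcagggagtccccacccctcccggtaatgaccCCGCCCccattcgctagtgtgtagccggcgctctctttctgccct
Flt1: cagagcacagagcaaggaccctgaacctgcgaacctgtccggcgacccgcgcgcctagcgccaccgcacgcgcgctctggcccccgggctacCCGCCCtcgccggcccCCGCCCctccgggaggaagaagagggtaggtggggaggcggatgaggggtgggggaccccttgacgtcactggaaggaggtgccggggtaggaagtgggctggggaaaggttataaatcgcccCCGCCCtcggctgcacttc
The *Kdr* window has a GC content of 61.6% with 1 ETS match and 2 GC boxes. That of *Flt1* has a GC content of 70.4% with 3 GC boxes and no match to the other 2 motifs. Windows were found for 24 of the 36 genes, some with more than 1, which gave 30 windows. Of these 30, 2 held the ETS motif, 3 the SOX motif and 14 a GC box. Genome-wide, 12.0%, 10.7% and 32.7% of 32851 windows of this length held them. These are letter matches, not measured binding.

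Among the other endothelial genes, 3 rose in both genotypes. *Ly6a*, a GPI-anchored protein also known as Sca-1, had 99.4, 94.2, 81.2, 74.1 and 85.2 in P10 WT and 369.6, 289.8, 343, 278 and 382 in WT-Veh, the largest increase of the set, at 1.92 ± 0.13 on the log2 scale in WT (adjusted p = 6.06e-08) and 2.01 ± 0.15 in HT (adjusted p = 4.04e-07). *Ly6c1* rose by 1.04 and 1.24, and *Vwf*, the clotting factor stored by endothelium, by 0.72 and 0.85. The angiopoietin receptor *Tek* fell by 0.56 in WT and 0.51 in HT, but the HT call was lost after the correction for GC content and length (−0.23, adjusted p = 0.126) and without any one of P10 HT replicates 2, 3 and 5 and HT-Veh replicates 1 and 3 (highest adjusted p = 0.0676). In WT, the junctional adhesion genes *Cdh5* (VE-cadherin) and *Esam* fell by 0.54 and 0.70. The transcription factor gene *Erg*, of the ETS family, fell by 0.87 in WT and 1.21 in HT. In all, 4 of the 17 endothelial genes rose and 11 fell in WT, and 4 rose and 5 fell in HT. *Tie1*, *Eng*, *Pecam1*, *Sox18* and *Itm2a* fell in WT with log2 fold changes from −0.72 to −0.43 and had estimates from −0.44 to −0.21 in HT that did not pass the test. After the correction, *Tie1*, *Eng*, *Pecam1* and *Sox18* were called lower in HT as well. *Emcn* fell by 0.36 in WT and stood at 0.02 in HT, and its WT call was lost after the correction (−0.18, adjusted p = 0.299) and without any one of P10 WT replicates 1, 2, 3 and 5 and WT-Veh replicates 2 and 4 (highest adjusted p = 0.0729). *Sox17* (−0.06 and 0.20) and *Cd34* (0.10 and 0.17) passed in neither as deposited.

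Barrier genes divided between rising nutrient or drug transporters and falling ones. *Slc2a1* had 1929, 1895, 1935, 2076 and 2396 normalized counts in P10 WT and 3822, 4723, 5019, 4218 and 5144 in WT-Veh, with log2 fold changes of 1.16 ± 0.09 in WT (adjusted p = 3.83e-07) and 1.08 ± 0.21 in HT (adjusted p = 0.00108). Within HT-Veh it was uneven, at 6908, 4796, 6753, 3097 and 3153, although all 5 lay above the P10 HT range of 2113 to 2298. *Slco1a4* rose by 1.09 in WT and 0.74 in HT, and *Abcb1a*, which encodes the efflux pump P-glycoprotein, by 0.87 and 0.61. The amino acid transporter gene *Slc7a5* fell by 0.87 and 0.71, and *Mfsd2a*, which carries the lipid DHA, fell by 0.57 and 0.53, although its HT call was lost without any one of P10 HT replicates 2, 3 and 5 and HT-Veh replicates 2 and 5 (highest adjusted p = 0.0595). *Cldn5* fell by 0.59 in WT, from 2332 ± 63.5 to 1574 ± 337 (SD, n = 5), and its estimate of −0.35 in HT did not pass as deposited (adjusted p = 0.0787). *Abcg2*, the gene of another efflux pump, fell by 0.41 in WT and 0.63 in HT, but its estimate was 0.05 in WT and 0.02 in HT after the correction for GC content and length. *Ocln* (−0.01 and −0.12) and *Bsg* (0.01 and 0.38) passed in neither genotype as deposited.

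Mural genes were mainly lower in the adult. *Rgs5*, a regulator of G protein signalling used as a pericyte marker, had 5141, 5008, 5381, 5091 and 5537 in P10 WT and 2188, 1658, 1587, 1689 and 1999 in WT-Veh. In HT, *Rgs5* had 4851, 4764, 4883, 4883 and 4745 at P10 and 1126, 1816, 1379, 2269.7 and 2124 at P120. The ages did not overlap, and the log2 fold change was −1.53 ± 0.09 in WT (adjusted p = 1.93e-08) and −1.52 ± 0.17 in HT (adjusted p = 1.35e-05). *Abcc9*, a potassium channel subunit of pericytes, fell by 1.24 in WT and 1.25 in HT, and the pericyte marker *Higd1b* by 1.37 and 1.02. *Igfbp7* fell by 0.78 and 0.69. *Notch3*, *Anpep* and *Pdgfrb*, the PDGF receptor that recruits pericytes, fell by 0.53, 0.46 and 0.28 in WT, and their HT estimates of −0.40, −0.17 and −0.06 did not pass as deposited. The smooth muscle genes *Acta2* and *Tagln* had estimates of −0.23 and 0.22 in WT and passed in neither genotype as deposited. *Vtn* was the 1 mural gene that rose, by 0.60 in HT (adjusted p = 0.00929), and its WT estimate was 0.06. Of the 10 mural genes, 7 fell in WT and 4 fell in HT. Their summed level was 12201 to 12994 in P10 WT and 7388 to 8137 in WT-Veh.

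**Figure D2:**
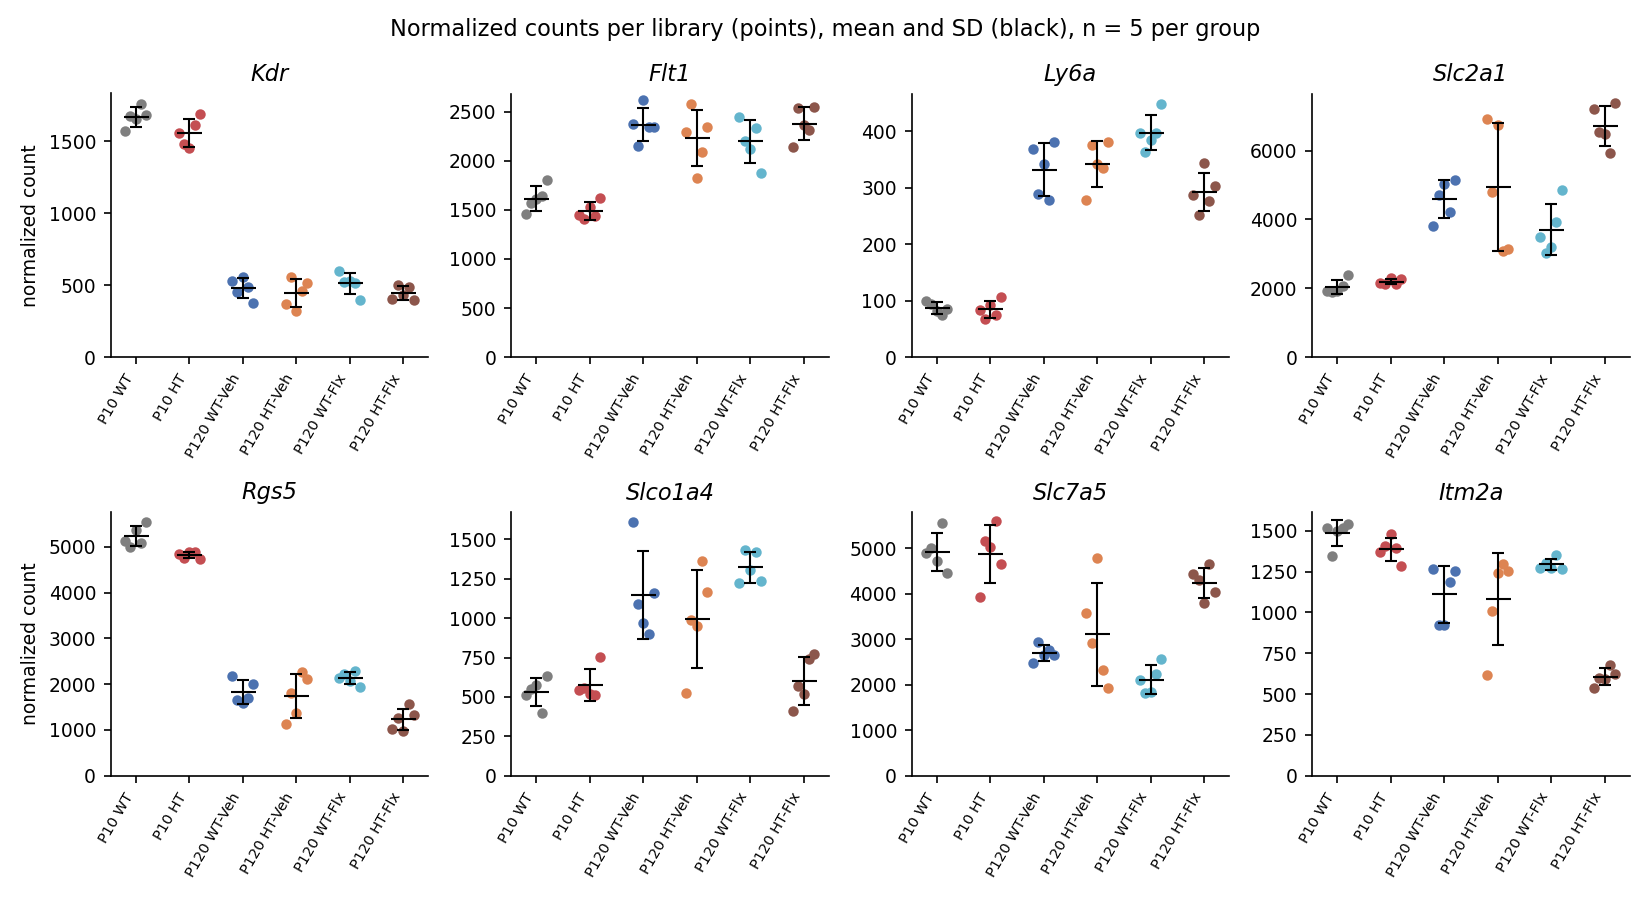
Normalized counts of *Kdr*, *Flt1*, *Ly6a*, *Slc2a1*, *Rgs5*, *Slco1a4*, *Slc7a5* and *Itm2a* in the 30 libraries by group, with the mean and SD of each group (n = 5) in black and axes that start at 0. *Kdr* and *Rgs5* are lower in every P120 library than in every P10 library, *Ly6a* and *Flt1* are higher, and *Slco1a4*, *Slc7a5* and *Itm2a* separate HT-Flx from WT-Flx.

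The age differences of the 2 genotypes were set side by side. Of all genes tested, 58.3% passed in WT and 51.1% in HT, and the share called alike in both was not computed. In both genotypes 7 of the 36 genes were higher, 12 were lower and none was called in opposite directions. A further 10 passed in WT alone, 1 (*Vtn*) passed in HT alone and 6 passed in neither, and the difference between the genotypes was not tested. HT-Veh libraries spread more, with a median coefficient of variation of 24.3% over the 36 genes against 14.1% in WT-Veh, and of 28.1% against 14.2% without replicate 2. After the correction for GC content and length, 22 were lower and 7 higher in WT (27.9% and 31.8% of all genes) and 18 were lower and 10 higher in HT (26.6% and 29.5%). Of these, 20 lower genes and all 7 higher genes in WT were also called that way before the correction. In HT, all 8 higher genes and 10 of the 12 lower ones kept their call, and 8 of the 10 genes that had passed in WT alone (*Pecam1*, *Tie1*, *Eng*, *Sox18*, *Cldn5*, *Pdgfrb*, *Anpep* and *Notch3*) were called lower. *Cd34* and *Ocln* were called higher in HT after the correction alone, and *Bsg* and *Acta2* were called lower in WT after it alone. The correction moved the estimate of *Vtn* in HT from 0.60 to 0.27 and that of *Itm2a* in WT from −0.43 to −0.23. It enlarged those of *Eng* in WT (to −0.82) and, in HT, of *Slco1a4* (to 1.23), *Abcb1a* (to 0.98), *Slc7a5* (to −1.11) and *Igfbp7* (to −1.15). Without replicate 2 of both Veh groups, 21 were lower and 7 higher in WT, and 12 were lower and 8 higher in HT. Of all genes tested, 5058 were lower and 4998 higher of 17936 in WT, and 4091 and 4130 of 18015 in HT. *Emcn* lost its call in WT and *Mfsd2a* lost its call in HT, where *Pecam1* gained one.

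**Figure D3:**
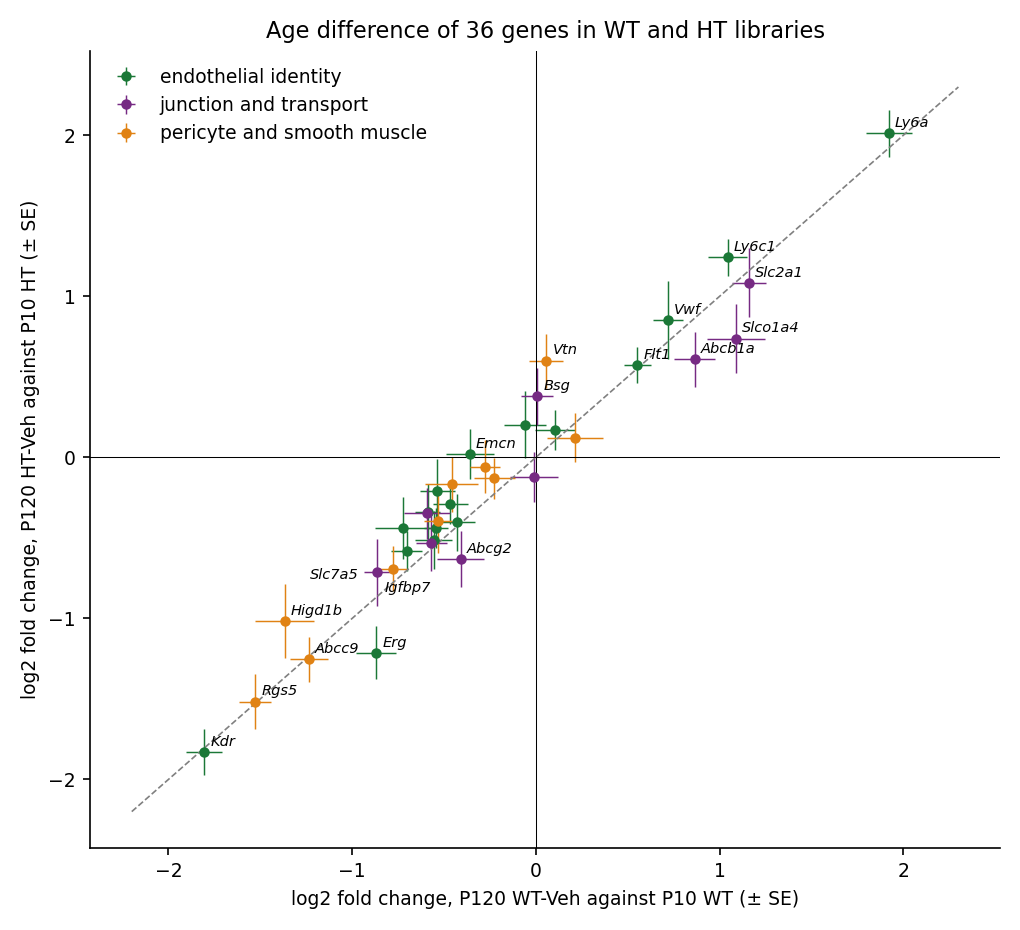
Log2 fold change (± SE) of the 36 genes from P10 to P120 in WT (horizontal axis) and in HT (vertical axis), coloured by class, with a dashed line where both are equal. *Ly6a*, at 1.92 and 2.01, and *Kdr*, at −1.81 and −1.83, stand at the ends, and no gene past the threshold in both genotypes lies on opposite sides of 0.

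Genes of the neighbouring pathways, from lists that hold none of the 36, moved as follows, with values as deposited. Of all genes tested, 29.4% fell and 28.9% rose in WT, and 25.3% fell and 25.8% rose in HT. Of 25 other endothelial genes, 18 fell and 2 rose in WT (median log2 fold change −0.62), and 12 fell and 2 rose in HT. *Cd93*, an endothelial surface receptor, fell by 2.06 in WT. Of 11 genes of sprouting or immature endothelium, 7 fell and 2 rose in WT, and 7 fell and 3 rose in HT. *Aplnr*, the apelin receptor of sprouting vessels, went from 659 ± 43.6 to 26.4 ± 11.2 in WT (SD, n = 5), a log2 fold change of −4.72 ± 0.29. Of 10 genes of the vascular basement membrane, 8 fell in WT and 7 in HT, with a median of −0.78 and −0.71. The nidogen gene *Nid1* fell by 2.81 in both genotypes. Of 16 other pericyte genes, 11 fell and 2 rose in WT and 7 fell and 2 rose in HT, with *Cd248* falling by 1.47 in WT. Other transporter and junction genes fell in 12 of 22 cases in each genotype and rose in 4, and *Slc38a5*, a glutamine transporter gene, fell by 2.71 in both. In the Wnt pathway, which maintains the barrier, 5 of 12 genes rose and 2 fell in WT, with *Wnt7a* and *Wnt7b* higher by 0.43 and 0.41 and *Apcdd1* lower by 1.67. Among 19 genes of VEGF, angiopoietin, Notch, PDGF and TGF-beta signalling, 8 fell and 4 rose in WT, including *Angpt1*, a ligand of the receptor encoded by *Tek*, which fell by 1.46. Of 13 other smooth muscle genes 3 rose and 3 fell, and of 9 genes of astrocyte endfeet 4 rose and 2 fell, the latter including the water channel gene *Aqp4*, which fell by 1.46. Without replicate 2 of both Veh groups, an alternative chosen after seeing the data, the Wnt genes that rose went from 5 to 7 in WT and from 4 to 1 in HT, and the smooth muscle genes that rose went from 3 to 5 in WT. Each of the other counts of these lists moved by 2 genes or fewer.

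Other cell types moved with age as well. All 6 markers of dividing cells fell in both genotypes, with a summed level of 2414 to 3721 in P10 WT and 80 to 163 in WT-Veh. Choroid plexus markers, led by *Ttr*, summed to 11876 to 16223 in P10 WT and 23266 to 34652 in WT-Veh, with 5 of 8 higher. Meningeal and perivascular fibroblast markers summed to 6188 to 26088 and 4020 to 4968, and blood cell markers to 10393 to 13185 and 5191 to 12085. In HT, fibroblast sums were 4846 to 6881 at P10 and 3708 to 7267 at P120, with a median log2 fold change of 0.35 against −0.09 in WT. Blood cell sums in HT were 5271 to 8455 and 4490.4 to 12663, with all 6 estimates positive and a median of 0.23 (0.05 without replicate 2), whereas all 6 were negative in WT, with a median of −0.57. The difference between the genotypes was not tested. Perivascular macrophage markers summed to 378 to 625 in P10 WT and 201 to 344 in WT-Veh, and microglial markers to 5419 to 7264 and 6135 to 8888. Sums for neurons were 101872 to 115774 and 134695 to 162637, for astrocytes 93369 to 117306 and 124077 to 156690, and for oligodendrocytes 126603 to 245770 and 177003 to 264045. Their part in the vascular differences was not tested.

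At P10, HT pups were compared with WT pups to ask whether the genotype is accompanied by vascular differences without any treatment. None of the 36 genes passed the adjusted threshold (limma), which 0.0224% of all genes did. The estimates leaned to lower levels in HT, with 30 of 36 negative and a median log2 fold change of −0.10 against −0.01 over all genes. At an unadjusted p under 0.05, 11 genes were lower and none was higher, where 6.84% of all genes were lower. After the correction for GC content and length, none of the 36 genes passed the adjusted threshold and the median stayed at −0.10. An unadjusted p under 0.05 (limma) was then found for 13 of the 36 genes and for 2097 of all 17883 genes tested. The values of HT lay wholly below those of WT for 5 genes, *Vtn*, *Eng*, *Bsg*, *Pecam1* and *Rgs5*, against 1.69% of all genes. In simulated data, 89% of genes changed by 1 on the log2 scale were recovered in this comparison. Smaller changes were not simulated, and the largest estimate of the set was −0.47, so this share does not tell whether differences of the estimated size would be found.

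The 3 largest estimates were those of *Higd1b*, *Vtn* and *Emcn*. *Higd1b* had 46.0, 57.4, 64.8, 55.0 and 75.9 normalized counts in HT and 77.0, 81.7, 86.8, 93.1 and 72.4 in WT, a log2 fold change of −0.47 ± 0.14 (adjusted p = 0.304). The groups overlapped. *Vtn* had 1138, 1868, 1781, 1716 and 1572 in HT and 2285, 2098, 1951, 1899.9 and 2139.8 in WT, which did not overlap (−0.38 ± 0.11, adjusted p = 0.292). *Emcn*, the gene of the sialomucin endomucin on capillaries and veins, had 118, 103, 119, 108 and 137 in HT and 147, 160.4, 143, 131 and 152 in WT (−0.32 ± 0.10, adjusted p = 0.304). *Eng*, a TGF-beta co-receptor of endothelium, had 958, 1212, 1298, 1314 and 1184 in HT and 1464, 1475, 1443, 1394 and 1560.2 in WT, with the lowest adjusted p of the set (−0.31 ± 0.08, adjusted p = 0.25). By class, 16 of 17 endothelial genes, 9 of 10 mural genes and 5 of 9 barrier genes had negative estimates. Positive estimates of 0.11 were found for *Slc2a1* (95% interval −0.02 to 0.24) and *Slco1a4* (−0.16 to 0.39).

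**Figure D4:**
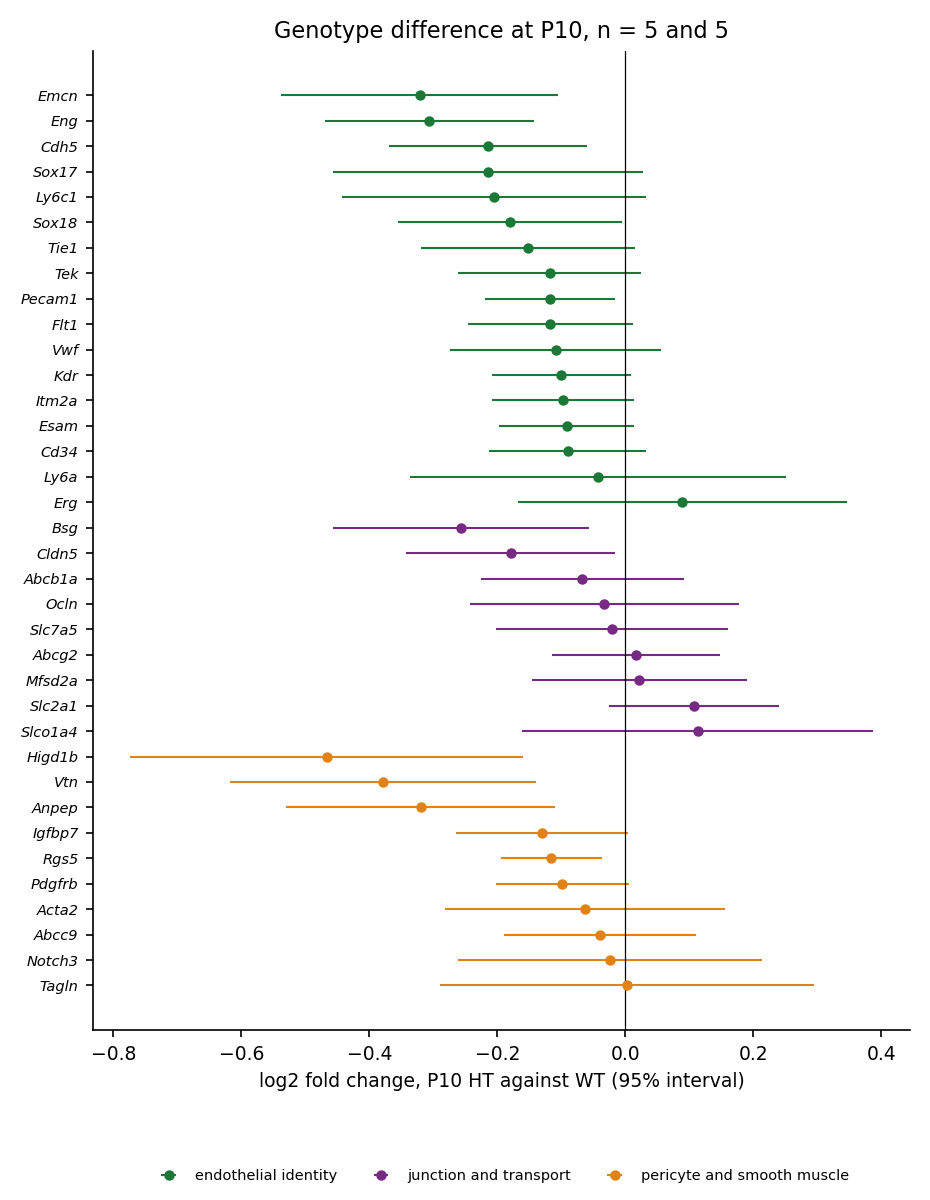
Log2 fold change of HT against WT at P10 for the 36 genes, with 95% intervals from limma (5 libraries per group), ordered within class and coloured by class. Most points lie left of 0, from −0.47 for *Higd1b*, although no gene passed the adjusted threshold.

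Single libraries and other tissues stood beside this lean. P10 HT replicate 1 had the lowest values of its group for the GC-rich genes *Cldn5* (1627), *Bsg* (9404), *Vtn* (1138) and *Eng* (958). Its GC-rich genes were low in general. Its mean deviation (log2) in the highest decile of GC content minus that in the lowest was −0.35, against −0.10 to 0.09 in the other P10 libraries. Without this library 10 of the 36 genes had an unadjusted p under 0.05 (limma), as had 1898 of all 17857 genes tested. P10 WT replicate 1 had a summed level of 26088 for the 9 fibroblast markers against a group median of 6990. Without it the number was 12, and 1856 of all 17860 genes tested. With each library left out in turn, none of the 36 genes passed the adjusted threshold and 9 to 15 had an unadjusted p under 0.05. Over all genes tested, the latter number ran from 1673 of 17903 to 2670 of 17901. Blood cell markers summed to 5271 to 8455 in HT and 10393 to 13185 in WT, with all 6 estimates negative and 1 past the threshold. All 8 choroid plexus estimates, 8 of 9 fibroblast estimates and all 6 estimates for oligodendrocytes and for dividing cells were also negative, whereas 4 of 6 neuron and 4 of 6 astrocyte estimates were positive. The part of these cells in the vascular estimates was not tested.

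In adult Veh mice, the genotypes were compared in replicates 1, 3, 4 and 5, the libraries in the results table of the study for this contrast (its figure legends count all libraries of both groups), so that the libraries at odds with their labels stayed out. None of the 36 genes passed the adjusted threshold (0% of all genes did), and none had an unadjusted p under 0.05, where 1.29% of all genes had one. The median log2 fold change was −0.03. The largest estimates were −0.33 ± 0.23 for *Abcb1a* (95% interval −0.84 to 0.19), −0.29 ± 0.20 for *Ocln*, the gene of the tight junction protein occludin (−0.72 to 0.14), and −0.28 ± 0.25 for *Abcg2* (−0.83 to 0.27). *Abcb1a* had 635, 766, 1273 and 1115 normalized counts in HT-Veh against 1305, 901, 1084 and 1347 in WT-Veh. The groups overlapped, although the lowest values of *Abcb1a* were both in HT-Veh. They came from replicates 1 and 3, the HT-Veh libraries with high GC-rich genes (0.53 and 0.60). *Abcb1a*, *Ocln* and *Abcg2* are GC-poor, at 45.2%, 42.0% and 39.2%. Across the 36 genes, which share libraries and are not independent, Spearman's rho between fold change and GC content was 0.72. It was 0.45 after the correction for GC content and length. Intervals of this width do not show that the genotypes were alike, and in simulated data 42.5% of genes changed by 1 were recovered. With all 5 and 5 libraries, none of the 36 genes passed either. After the correction, none passed and the median log2 fold change was −0.07. An unadjusted p under 0.05 (limma) was then found for none of the 36 genes and for 422 of all 17773 genes tested.

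Within each genotype, Flx mice were compared with Veh mice. None of the 36 genes passed in HT or in WT (0% of all genes did in each). In HT, 15 genes had an unadjusted p under 0.05, against 23.1% of all genes. The largest estimate was that of *Anpep*, the gene of the pericyte surface enzyme CD13, which had 492, 286, 267, 191 and 225 normalized counts in HT-Flx against 201, 157, 178, 106 and 133 in HT-Veh (0.87 ± 0.25, adjusted p = 0.215). *Itm2a*, a membrane protein gene enriched in brain endothelium, had 534, 601, 591, 679.6 and 620.2 in HT-Flx against 617, 1008, 1242, 1297 and 1251 in HT-Veh (−0.79 ± 0.19, adjusted p = 0.215). *Slco1a4* had an estimate of −0.70 ± 0.25, with the same adjusted p. After the correction for GC content and length, the estimate for *Anpep* was 0.62, that for *Itm2a* −0.42 and that for *Slco1a4* −0.15. The HT-Veh values of *Itm2a* overlapped with HT-Flx only through replicate 1, one of the 2 HT-Veh libraries with high GC-rich genes. After the correction, 2 of the 36 genes had an unadjusted p under 0.05, as had 1997 of all 17666 genes tested. With single libraries left out, none passed (limma) and the number at an unadjusted p under 0.05 ran from 4 to 19. Over all genes tested it ran from 1280 of 17625 to 6666 of 17707. For the 36 genes it was 4 without HT-Flx replicate 1 (1723 of all 17698 genes tested) or HT-Veh replicate 4 (1331 of 17627). It was 5 without HT-Veh replicate 5 (1280 of 17625) and 9 without the library labelled HT-Veh replicate 2 (3228 of 17678).

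In WT, 12 of the 36 genes had an unadjusted p under 0.05 between Flx and Veh, against 25.2% of all genes. *Notch3*, a receptor that keeps mural cells differentiated, had 973, 782, 799, 915 and 802 normalized counts in WT-Flx and 1045, 1212, 1229, 1319 and 1108 in WT-Veh, which did not overlap (−0.47 ± 0.09, adjusted p = 0.0849). *Sox18*, an endothelial transcription factor gene, had an estimate of −0.38 ± 0.20 (adjusted p = 0.242) and *Slc7a5* one of −0.36 ± 0.10 (adjusted p = 0.0871). After the correction, the estimate for *Notch3* was −0.21 (adjusted p = 0.41). An unadjusted p under 0.05 was then found for 1 of the 36 genes and for 1874 of all 17854 genes tested. Without WT-Veh replicate 1, 4 of the 36 genes passed the adjusted threshold, as did 1400 of all 17852 genes tested. With WT-Veh replicate 5 left out, 1 of the 36 passed, as did 624 of all 17864 genes tested. Without the library labelled WT-Veh replicate 2, none passed and 7 had an unadjusted p under 0.05 (limma), as had 3787 of all 17872 genes tested. The number for the 36 genes was 5 without WT-Veh replicate 3 (3328 of all 17885) and 7 without WT-Veh replicate 4 (3630 of 17864). It was 6 without WT-Flx replicate 2 (3370 of 17853) or 3 (3203 of 17851).

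Among the comparisons of genotypes, that of the Flx groups had the most genes of the set past the threshold as deposited. HT-Flx and WT-Flx libraries also differed in their GC-rich genes, as shown above, and the Veh comparison used fewer libraries. Between HT-Flx and WT-Flx, 16 of the 36 genes were higher in HT-Flx and 10 were lower, against 33.1% and 30.5% of all genes. Differences of this kind were spread over much of the transcriptome. *Slc7a5* had 4446, 4294, 3807, 4649 and 4030.0 normalized counts in HT-Flx against 2095, 1808, 1842, 2240.4 and 2570.4 in WT-Flx, the largest increase of the set (1.02 ± 0.10, adjusted p = 3.27e-05). *Slco1a4* had 410.1, 571, 518, 740.5 and 770.3 in HT-Flx against 1222, 1433, 1307, 1418 and 1236 in WT-Flx, the largest decrease (−1.17 ± 0.16, adjusted p = 6.24e-05). *Itm2a* had 534 to 680 in HT-Flx against 1269 to 1349 in WT-Flx (−1.10 ± 0.08, adjusted p = 3.06e-05). The groups did not overlap for any of the 3 genes.

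By class, 6 endothelial genes were higher in HT-Flx, namely *Vwf* (0.90), *Eng* (0.87), *Tie1*, the partner of the angiopoietin receptor (0.78), *Sox18* (0.61), *Sox17* (0.54) and *Esam* (0.46), and 4 were lower, namely *Itm2a*, *Tek* (−0.53), *Ly6a* (−0.45) and *Emcn* (−0.44). *Kdr* and *Flt1*, at −0.20 and 0.12, did not pass, nor did *Pecam1*, *Cdh5*, *Ly6c1*, *Erg* and *Cd34*, which lay between −0.45 and 0.24. Of the barrier genes, *Slc7a5*, *Slc2a1* (0.87), *Mfsd2a* (0.84), *Bsg* (0.74) and *Cldn5* (0.68) were higher, whereas *Slco1a4*, *Abcb1a* (−0.98), *Abcg2* (−0.93) and *Ocln* (−0.62) were lower. Of the mural genes, *Notch3* (0.99), *Anpep* (0.88), *Vtn* (0.75), *Pdgfrb* (0.75) and *Igfbp7* (0.46) were higher, and *Rgs5* (−0.81) and *Abcc9* (−0.43) were lower, while *Acta2* (0.26), *Tagln* (−0.33) and *Higd1b* (−0.11) did not pass. Genes of 1 cell type therefore lay on both sides.

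The 2 directions separated by GC content. All 16 higher genes were among the 18 GC-richer genes (GC content of 52.4% or more), and all 10 lower genes were among the 18 GC-poorer ones, with median log2 fold changes of 0.75 and −0.45. Across the 36 genes, which share the same libraries and are not independent, Spearman's rho between fold change and GC content was 0.86, and over all genes tested it was 0.78. After the correction, rho was 0.30 across the 36 genes and 0.04 over all genes tested. Then 9 genes were higher and 6 lower, against 20.2% and 15.6% of all genes. The call of higher held for 8 genes, *Slc7a5* (0.37), *Slc2a1* (0.34), *Mfsd2a* (0.38), *Bsg* (0.22), *Vtn* (0.35), *Pdgfrb* (0.27), *Notch3* (0.27) and *Esam* (0.21). *Itm2a* (−0.49), *Abcb1a* (−0.43) and *Ly6a* (−0.30) were called lower both before and after it. The retained higher genes were all among the GC-richer ones and the retained lower genes among the GC-poorer ones. Whether an offset with GC content remained in these calls was not tested. *Rgs5* turned from −0.81 to 0.17 (adjusted p = 0.042), *Slco1a4* came to −0.18 (adjusted p = 0.18) and *Cldn5*, the gene of the GC-rich stretch shown above, to 0.01 (adjusted p = 0.98). *Cdh5*, *Erg* and *Tagln* were called lower after the correction alone.

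The pathway lists divided in the same comparison. Of all genes tested, 33.1% were higher and 30.5% lower as deposited, and 20.2% and 15.6% after the correction. As deposited, 11 of 25 other endothelial genes were higher in HT-Flx and 6 lower, and after the correction 3 were higher and none was lower. *Gja4*, a gap junction gene of arterial endothelium, was higher by 1.29 and *Adgrl4* lower by 0.80. Of 19 genes of VEGF, angiopoietin, Notch, PDGF and TGF-beta signalling, 11 were higher and 3 lower as deposited, and 3 and 2 after the correction. Of 22 other transporter and junction genes, 5 were higher and 7 lower as deposited, including *Tfrc*, the transferrin receptor gene (−1.26), and 6 and 5 after it. The basement membrane list turned, from 6 of 10 higher and none lower to none higher and 3 lower. Wnt genes went from 6 higher and 3 lower of 12, with *Wnt7b* at 1.20 and *Wnt7a* at 1.13, to 3 higher and none lower. Of 16 other pericyte genes, 7 were higher and 3 lower before and 1 higher and 3 lower after, and of 13 other smooth muscle genes 3 higher and 2 lower became 2 and 3. Sprouting genes went from 6 higher and 1 lower of 10 tested to 2 higher, and astrocyte endfoot genes from 4 higher and 4 lower of 9 to 4 and 3.

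Other cell types also differed between the Flx groups. Summed blood cell markers were 8768 to 14375 in HT-Flx against 6314 to 8922 in WT-Flx, with 3 of 6 higher and 1 of 6 higher after the correction. Summed fibroblast markers were 5937 to 6321 against 3679 to 4802, with 6 of 9 higher and 4 of 9 after it, and oligodendrocyte markers were 250439 to 279477 against 178474 to 236994. The part of these cells in the vascular differences was not tested.

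**Figure D5:**
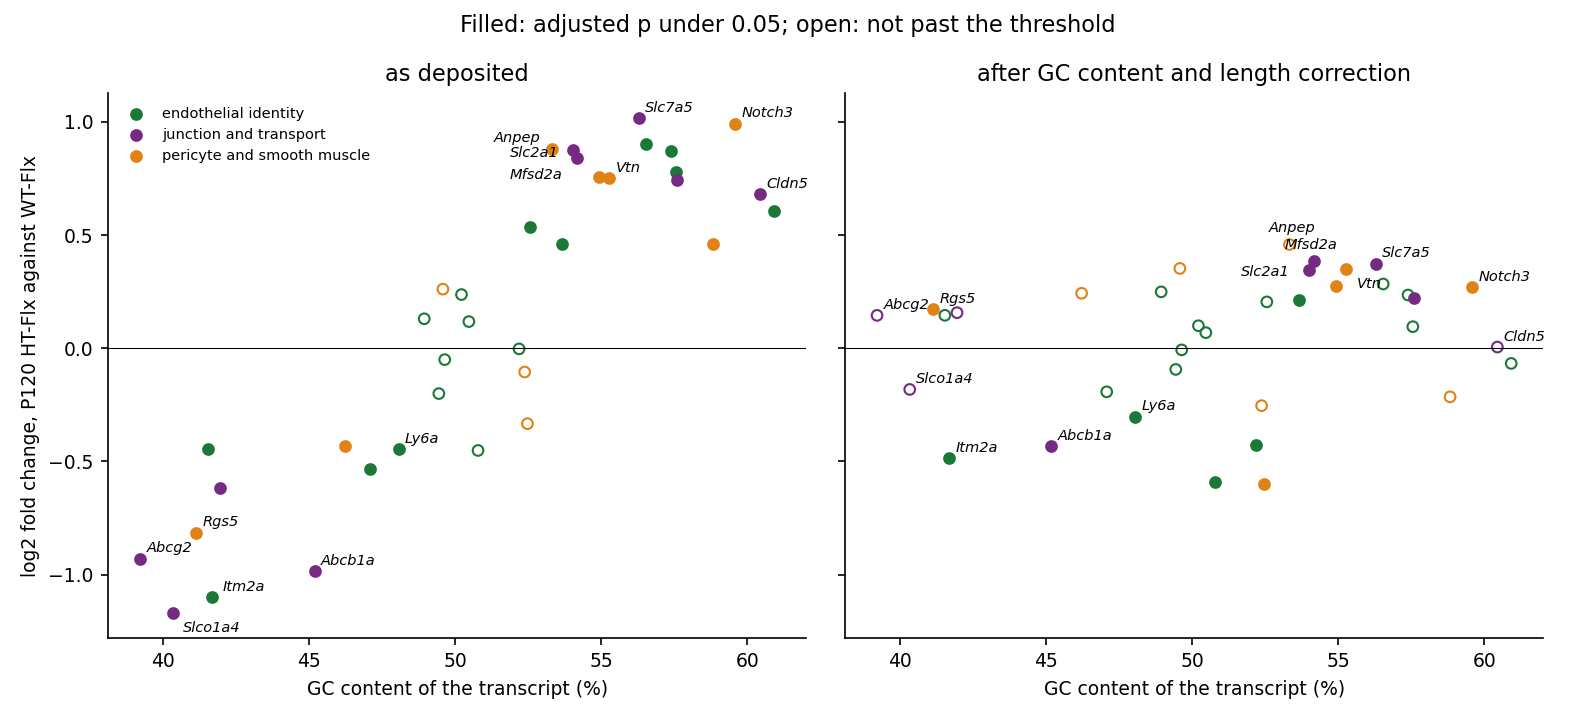
Log2 fold change of HT-Flx against WT-Flx for the 36 genes against the GC content of the transcript (%), as deposited (left) and after the correction for GC content and length (right), with filled points past an adjusted p of 0.05. On the left the points climb from −1.17 for *Slco1a4* to 1.02 for *Slc7a5*, and on the right they lie between −0.60 and 0.46.

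The interaction of genotype and fluoxetine over the 20 P120 libraries asks whether the Flx-Veh difference itself differs between HT and WT. As deposited, 11 of the 36 genes had a higher difference in HT and 6 a lower one, against 15.8% and 11.5% of all genes. Among the terms that passed, positive ones were largest for *Anpep* (0.91 ± 0.30, adjusted p = 0.0369), *Slc7a5* (0.88 ± 0.24, adjusted p = 0.0347) and *Notch3* (0.88 ± 0.22, adjusted p = 0.0347), and negative ones for *Itm2a* (−1.03 ± 0.22, adjusted p = 0.0347) and *Slco1a4* (−0.93 ± 0.30, adjusted p = 0.0357). All 11 were among the GC-richer genes and all 6 among the GC-poorer ones. After the correction for GC content and length none of the 36 genes passed, nor did any other gene (0%). An unadjusted p under 0.05 was then found for 6 of the 36 and for 3780 of all 17785 genes tested. Without replicate 2 of both Veh groups none passed (limma), with 21 of the 36 at an unadjusted p under 0.05 and 7312 of all 17789. With single libraries left out, the number of all genes tested that passed ran from 0 to 7667, and that of the set from 0 to 21 of 36. It was 0 in 8 of 20 such fits, namely without HT-Flx replicate 1, WT-Flx replicate 2 or 3, HT-Veh replicate 4 or 5, or WT-Veh replicate 2, 3 or 4. The interaction shares its libraries with the comparison of HT-Flx and WT-Flx and is no separate evidence.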

How the data were processed

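Whole-brain RNA of 30 male mice was stored in RNAlater, selected for poly-A RNA and sequenced in paired ends. The deposited table holds 1 signal value per gene and library, which the authors made by quantifying reads with Salmon 1.1.0 on GRCm38 with its GC bias option and dividing gene counts by DESeq2 (1.30.1) size factors over all libraries. These normalized counts are not whole reads, so the depth of a library and its counting error are unknown, and any effect of composition left by the size factors remains in them. Each library was taken as 1 mouse of its labelled group.

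Values were transformed to log2(value + 1), which understates changes of low genes. Genes with a mean of at least 10 in the libraries compared were tested with limma 3.58.1 (R 4.3.3, with an intensity trend), and p-values were adjusted by Benjamini-Hochberg over all genes tested, with a threshold of 0.05. Tables were joined with Python 3.11.15, pandas 2.3.3, numpy 2.4.6 and scipy 1.17.1. A second set of values had the offset of each of 100 bins of GC content and length subtracted in each library, using the GRCm38 annotation, in which 19722 of 19737 genes were found. The method was tested on simulated data with 200 genes changed by 1 on the log2 scale, of which 42.5% to 89% were recovered, depending on the comparison. The noise was drawn independently for each gene and library, without deviations shared by the genes of a library, and smaller changes were not simulated. Replicate numbers were checked for pairing and did not meet the criterion in any comparison.

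The 36 genes and the lists of pathway and cell type genes were chosen with earlier results of these data known. Within each class and direction, up to 5 genes past the threshold are named by fold change, or the 3 largest where none passed, and from each pathway list at most 2 per direction. Other genes of the 36 are named where a value bears on them. Alternatives were the pseudocount (0.1 or 5), the filter (none, or a mean of at least 100), the scaling, the trend, a fit of all 30 libraries, the replicate block, the correction and leaving out libraries.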

Additional observations from a re-analysis of the deposited data

Results flagged for a closer look

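Among groups of 5 libraries, 7 of 216 combinations of gene and group held 1 library whose gap to its nearest neighbour was large for the range of the group (Dixon's test), where chance gives about 10.8. *Cldn5* (1627) and *Bsg* (9404) were low in P10 HT replicate 1. *Itm2a* in P10 WT replicate 2 had 1345 normalized counts, *Notch3* in P10 WT replicate 4 had 1919.9, *Slco1a4* in P10 HT replicate 5 had 750.4, *Abcc9* in P10 HT replicate 4 had 625 and *Igfbp7* in P120 HT-Flx replicate 1 had 840.3.

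By the interaction term, 27.3% of all genes tested passed (limma, adjusted p under 0.05, values as deposited). For 17 of the 36 genes, the difference between Flx and Veh differed between HT and WT. It was more positive in HT for *Anpep* (0.91), *Slc7a5* (0.88), *Notch3* (0.88), *Eng* (0.85), *Slc2a1* (0.84), *Mfsd2a* (0.78), *Tie1* (0.68), *Pdgfrb* (0.63), *Bsg* (0.63), *Vtn* (0.59) and *Igfbp7* (0.50). It was more negative in HT for *Itm2a* (−1.03), *Slco1a4* (−0.93), *Abcg2* (−0.72), *Rgs5* (−0.71), *Abcb1a* (−0.66) and *Ly6a* (−0.49). None of the 17 passed after the correction for GC content and transcript length, or without replicate 2 of both Veh groups. In 8 of 20 fits with a single library left out, none of the 36 genes passed.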

How the results depend on the processing

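Of 174 alternative values for the number of the 36 genes past the threshold in the 8 comparisons, 152 lay within 1.5 times the value reported, 18 were lower and 4 higher. Between HT-Flx and HT-Veh, 0 genes became 19 with all 30 libraries in 1 fit and 5 with the replicate block. Of all 17676 genes tested there, 5916 and 1355 passed. Between HT-Flx and WT-Flx, 26 became 15 after the correction for GC content and length and 12 with the replicate block added to it. Of all 17788 genes tested there, 6385 and 5233 passed. For the interaction, 17 became 0 after the correction, 0 with the correction and the replicate block and 0 without replicate 2 of the Veh groups. With each library left out in turn, the number ran from 28 to 29 for age in WT, 18 to 23 for age in HT, 0 to 0 for P10 HT against WT, HT-Veh against WT-Veh and HT-Flx against HT-Veh, 0 to 4 for WT-Flx against WT-Veh, 25 to 28 for HT-Flx against WT-Flx and 0 to 21 for the interaction. Same-numbered libraries did not deviate together throughout. In HT-Flx and HT-Veh, the mean correlation of same-numbered libraries was 0.179 and the lowest −0.018, and 3 of 5 correlated best with their own number.

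Of 5116 alternative values for 230 log2 fold changes of named genes, 4441 kept their direction and side of the threshold, 636 lost the threshold, 9 gained it and 30 changed sign, all 30 with the correction, with or without the replicate block. They were *Abcg2* for age in WT (0.0482) and in HT (0.0174). Between HT-Flx and WT-Flx they were *Emcn* (0.15), *Sox18* (−0.0672), *Ocln* (0.16), *Abcg2* (0.15), *Abcc9* (0.24), *Rgs5* (0.17), *Igfbp7* (−0.21), *Lrp6* (0.15) and *Tgfbr1* (0.20). In the interaction they were *Abcg2* (0.21), *Rgs5* (0.19), *Igfbp7* (−0.0525) and *Tspan12* (0.0075). The cause of these changes was not tested. Of 72 levels per kb, 36 moved by more than 1 SD with the length of the exon union. Genes under a mean of 100 gave no value under that filter. The depth behind the values is unknown, so it is not known which of the lower genes it limits.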
